A study of Mus musculus with 9 samples.

Results

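Upstream flank regions are stretches of open chromatin that the authors' deposited tables annotate 1 to 5 kb upstream of a transcript start. By the same annotation they touch no promoter, exon or untranslated region. They were chosen by annotation alone. Every region named in at least 1 of the 3 tables of differential accessibility was pooled, those annotated to the interval 1 to 5 kb upstream of a transcript were kept, and those that also carried a promoter, exon or untranslated region annotation were removed. This left 196 of 1832 listed regions (10.7%). Among the remaining listed regions, 262 touched a promoter, 156 an exon or untranslated region without a promoter, 592 an intron only and 626 were intergenic.

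The regions came from ATAC-seq of C2C12 myotubes, multinucleated muscle cells formed by fusion of a mouse myoblast line. Myotubes were exposed to 10 mM ammonium acetate for 24 h, exposed for 3 h, or left untreated, and each of these 3 groups had 3 libraries described as biological replicates, 9 in all. All groups share the line and its differentiation, no group received another acetate salt, and no culture time is given for the untreated cells, so ammonium and acetate, or treatment and time in culture, cannot be told apart. Identity markers of myotubes could not be checked, because the tables used here hold only regions that met a p limit and give no value per library. The depth of the single libraries is therefore unknown here, and a larger share of cells with an open region cannot be told apart from greater openness per cell.

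In ATAC-seq a transposase inserts adapters into DNA that is not tightly covered by nucleosomes, so a region with more fragments is more accessible. Sequence immediately around a transcript start holds the core promoter, whereas the flank further upstream often holds enhancers and alternative starts, bound by factors that respond to signals. CpG islands are stretches rich in CpG dinucleotides that commonly cover promoters. Shores are the belts next to an island and shelves lie beyond the shores, so a flank region often falls on the shore or shelf of the island at the neighbouring promoter.

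No genome sequence was used, so the bases of most regions are not printed. In 3 upstream flank regions, a 300-base window that RefSeq places around another transcript start (GRCm38.p6) lies wholly inside the accessible region. These windows are shown because they are the only stretches whose bases could be read. All are printed 5′ to 3′ on the strand of the transcript, and capitals mark matches, on either strand, to 4 motifs: the AP-1 motif TGAGTCA or TGACTCA, the E-box CAGCTG, the TEAD motif GGAATG or CATTCC, and the KLF or SP motif GGGCGGG or CCCGCCC. The first lies in a region inside Nav1, a gene for a microtubule-binding protein, the second upstream of Cp, the gene of the copper-carrying ferroxidase ceruloplasmin, and the third inside Rerg, a gene for a small GTPase related to Ras.
Gm32940 window, chr1:135515216-135515515, plus strand: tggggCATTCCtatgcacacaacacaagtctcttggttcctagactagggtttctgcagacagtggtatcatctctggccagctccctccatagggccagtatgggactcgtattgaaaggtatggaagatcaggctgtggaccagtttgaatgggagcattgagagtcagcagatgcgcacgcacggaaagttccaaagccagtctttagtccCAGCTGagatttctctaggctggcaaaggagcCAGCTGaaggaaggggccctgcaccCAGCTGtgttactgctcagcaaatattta
Gm42190 window, chr3:19953905-19954204, minus strand: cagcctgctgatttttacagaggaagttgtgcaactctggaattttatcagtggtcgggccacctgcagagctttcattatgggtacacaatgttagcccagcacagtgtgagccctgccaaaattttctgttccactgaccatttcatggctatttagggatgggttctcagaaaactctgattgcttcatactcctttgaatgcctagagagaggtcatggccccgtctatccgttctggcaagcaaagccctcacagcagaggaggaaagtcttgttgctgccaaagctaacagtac
Gm38914 window, chr6:137142499-137142798, plus strand: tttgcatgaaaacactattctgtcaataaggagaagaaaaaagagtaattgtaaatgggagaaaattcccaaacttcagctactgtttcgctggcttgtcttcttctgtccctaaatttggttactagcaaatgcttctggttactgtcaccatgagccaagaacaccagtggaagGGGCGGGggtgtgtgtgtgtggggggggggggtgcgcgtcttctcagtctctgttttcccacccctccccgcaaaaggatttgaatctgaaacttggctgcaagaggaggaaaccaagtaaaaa
The Gm32940 window held 3 E-box matches and 1 TEAD match at a GC content of 51.3%. The Gm42190 window held none of the 4 motifs at a GC content of 47.7%, and the Gm38914 window held 1 KLF or SP match at 46.3%. Among all 32851 RefSeq windows of that length, the E-box letters occurred in 16.3%, the TEAD letters in 14.7%, the KLF or SP letters in 25.6% and the AP-1 letters in 5.20%, and the median GC content was 52.7%. These matches are descriptions of the letters, not of binding.

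The region with the Gm32940 window had a log2 fold change of 0.70 ± 0.21 after 3 h against untreated cells in the authors' deposited table (adjusted p = 0.9999, edgeR). Throughout, ± gives an approximate standard error, computed as the absolute log2 fold change divided by the square root of the deposited F statistic. In the authors' deposited table of 24 h against 3 h, the regions with the Gm42190 and Gm38914 windows had log2 fold changes of 0.70 ± 0.16 (adjusted p = 0.332, edgeR) and -0.63 ± 0.19 (adjusted p = 0.494, edgeR). None of these 3 differences passed an adjusted p of 0.05.

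The flank regions differed from the other listed regions in what surrounds them. Of the 196, 25.5% touched a CpG shelf, against 3.67% of the other listed regions, and 18.4% touched a shore, against 10.8%. Islands themselves were touched by 1.02%, against 5.99%. Part of this follows from the rule, which places the regions close to starts and removes promoters. Their median width was 532.5 bp, against 614.0 bp, and their median abundance was 2.34 log2 CPM (read counts scaled to library size), against 2.42 log2 CPM.

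The midpoint of a flank region lay at a median of 2912 bp from the nearest start that it was annotated upstream of. The range was 1262 to 5398 bp, the upper values arising where a wide region only reaches into the interval. Other starts can lie closer, as in the 3 regions that hold a RefSeq start window. Outside all introns lay 103 regions, 58 lay in an intron of the gene they are upstream of, which occurs where a gene has an internal start, 29 lay in an intron of another named gene, and 6 in an intron of a transcript without a symbol. A gene symbol was given for 137 regions, covering 139 genes, and 59 were upstream only of transcripts without a symbol. Of those 59, 23 overlapped a coding gene of RefSeq, 6 had one within 5 kb and 30 had none within that distance. The regions were spread over 19 chromosomes, with 19 of the 132 listed regions of chromosome 1 and none of the 22 on chromosome X.

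Of the 196 flank regions, 186 were listed in 1 table, 10 in 2 and 0 in all 3. Listing in 1 table was also the rule among all 1832 listed regions, of which 3 were in all 3 tables. The table of 24 h against untreated cells held 14 flank regions among 150 regions (9.33%). The table of 3 h against untreated cells held 68 among 588 (11.6%), and that of 24 h against 3 h held 124 among 1256 (9.87%). These lengths cannot be compared, because the limits differ. The 24 h table ended at an adjusted p of 0.05, whereas the others ended at a raw p of 0.005 with a change of at least 1.5-fold.

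**Figure D1:**
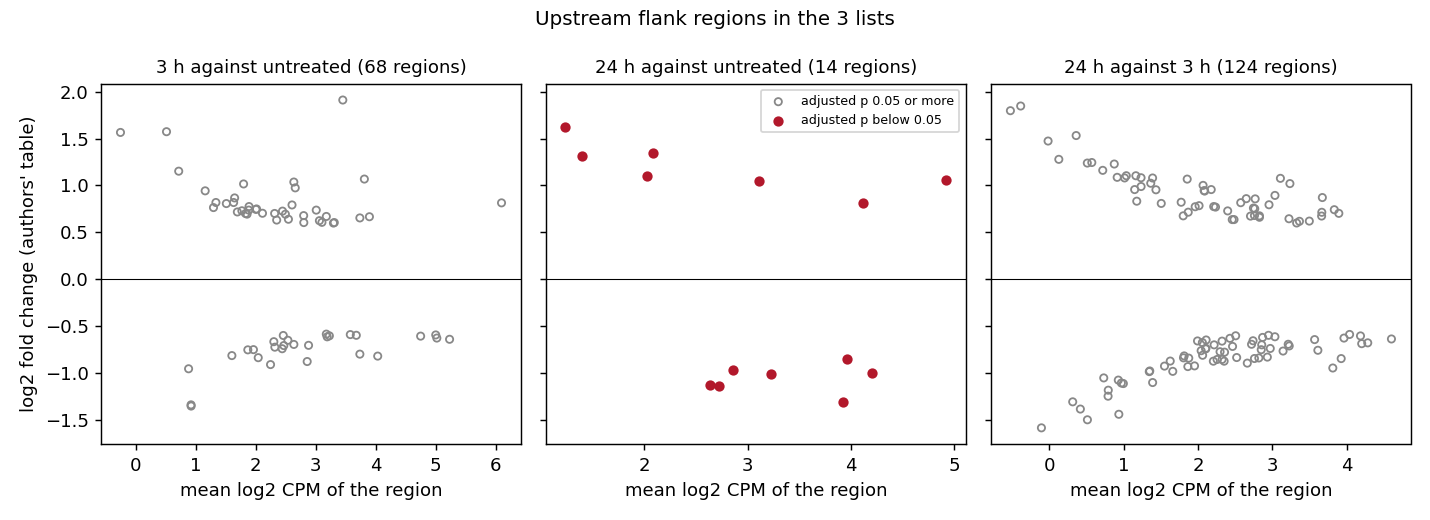
Log2 fold change (vertical axis) against mean abundance in log2 CPM (horizontal axis) for the upstream flank regions of each table, 1 point per region. The 68 regions of 3 h against untreated and the 124 of 24 h against 3 h lie beyond 1.5-fold in either direction, and, apart from the 3.76-fold region near Jund at 3.45 log2 CPM, the 5 largest changes at 3 h against untreated are below 1 log2 CPM.

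After 24 h of ammonium acetate, 7 flank regions gained and 7 lost accessibility relative to untreated cells, by 1.76-fold to 3.08-fold up and 1.80-fold to 2.49-fold down. These 14 passed an edgeR adjusted p of 0.05 in the authors' deposited table, as did 0.103% of the 146047 regions tested overall. The number of tested regions that are upstream flanks is not known here, so this share could not be set beside that of all flanks. Of the 14 flanks, 50.0% were higher (exact 95% interval 23.0% to 77.0%), beside 44.7% of all 150 regions of that table. Their median absolute log2 fold change was 1.08, against 1.10 for the whole table.

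Among the regions that rose at 24 h, that with the smallest p lay upstream of Zcchc2, a gene for a CCHC zinc finger protein, on chromosome 1 from 105988150 to 105988411 (mm10), on a CpG shore. In the authors' deposited table its log2 fold change was 1.35 ± 0.19 against untreated cells (adjusted p = 0.00960, edgeR), a 2.55-fold gain. The steepest rise, 3.08-fold, was in a region upstream of a transcript without a symbol on chromosome 1, from 71921287 to 71921808, with a log2 fold change of 1.62 ± 0.27 in the authors' deposited table (adjusted p = 0.0204, edgeR). Its nearest coding gene, Mreg, was 237425 bp away.

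Rnf141 and Fancg each had 1 rising region upstream. Upstream of Rnf141, which encodes a RING finger protein, a region rose 2.48-fold, with a log2 fold change of 1.31 ± 0.26 in the authors' deposited table (adjusted p = 0.0499, edgeR). Its midpoint was 4146 bp from the Rnf141 start, and its nearest coding gene was Lyve1, 1814 bp away. Upstream of Fancg, whose product belongs to the Fanconi anaemia core complex that handles DNA crosslinks, an abundant region rose 2.08-fold, with a log2 fold change of 1.06 ± 0.19 in the authors' deposited table (adjusted p = 0.0361, edgeR).

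Of the rising regions, 2 more sat in introns. One, 3840 bp outside the RefSeq gene body, was annotated in the authors' deposited table to an intron of a transcript of Nfib, which encodes a nuclear factor I transcription factor. Its log2 fold change, as the authors' deposited table gives it, was 0.81 ± 0.16 (adjusted p = 0.0449, edgeR), the smallest of the 7 rises at 1.76-fold. The other lay in an intron of Nipa1, a gene for a magnesium transporter, upstream of a transcript without a symbol, and rose 2.07-fold, with a log2 fold change of 1.05 ± 0.18 in the authors' deposited table (adjusted p = 0.0257, edgeR).

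Of the regions that fell at 24 h, 2 were upstream of Arf3 and Hlcs. Upstream of Arf3, a small GTPase of Golgi vesicle traffic, the region fell 1.80-fold, with a log2 fold change of -0.85 ± 0.15 in the authors' deposited table (adjusted p = 0.0312, edgeR). Its midpoint was 5299 bp from the Arf3 start, and its nearest coding gene was Wnt10b, 1801 bp away. In an intron of Hlcs, whose enzyme attaches biotin to carboxylases, the region upstream of an internal start fell 2.19-fold, with a log2 fold change of -1.13 ± 0.19 in the authors' deposited table (adjusted p = 0.0257, edgeR).

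Other falls were upstream of less studied or unnamed transcripts. In an intron of Mroh3, upstream of an internal start, the authors' deposited table gave a log2 fold change of -1.14 ± 0.22 (adjusted p = 0.0418, edgeR). Upstream of D630003M21Rik it gave -1.01 ± 0.19 (adjusted p = 0.0391, edgeR). The deepest fall, 2.49-fold, was on chromosome 9 from 101438255 to 101439208, 186423 bp from the nearest coding gene, Ppp2r3a, with a log2 fold change of -1.31 ± 0.20 in the authors' deposited table (adjusted p = 0.0140, edgeR). On chromosome 8, 25167 bp from Prag1, a region from 36172954 to 36173948 fell 2.01-fold in the authors' deposited table (adjusted p = 0.0232, edgeR), with an approximate standard error of 0.17 on the log2 scale.

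**Figure D2:**
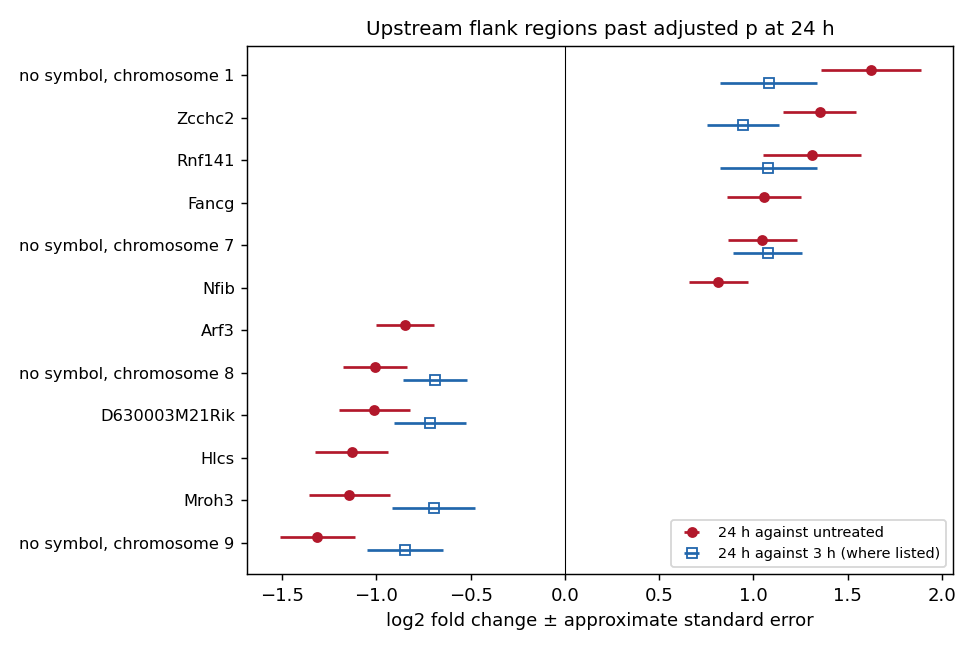
Upstream flank regions that passed an adjusted p of 0.05 at 24 h, 12 of the 14, with the log2 fold change (horizontal axis) of 24 h against untreated as dots and, where listed, of 24 h against 3 h as squares, each with an approximate standard error. The 6 rises shown lie between 0.81 and 1.62 and the 6 falls between -0.85 and -1.31.

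For 8 of these 14 regions the table of 24 h against 3 h also gave a value, and both comparisons share the 24 h libraries, so their signs are not independent. In the authors' deposited table of 24 h against 3 h, the Nipa1 intron region had a log2 fold change of 1.08 ± 0.18 (adjusted p = 0.198, edgeR), close to its value against untreated cells. The difference of both listed values, which stands for 3 h against untreated, was -0.03 for that region. For the other rises the same difference was 0.41 upstream of Zcchc2, 0.54 at the chromosome 1 region without a symbol and 0.23 upstream of Rnf141. For the falls it was -0.46 at the chromosome 9 region, -0.31 at the chromosome 8 region, -0.30 upstream of D630003M21Rik and -0.45 in the Mroh3 intron. These derived values come from the authors' deposited tables and carry no test.

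After 3 h of ammonium acetate no flank region passed an adjusted p of 0.05 in the authors' edgeR test, and all 68 listed ones had a raw p under 0.005. Across all 146047 tested regions, 0.000685% passed at 3 h, which is 1 intergenic region. The 68 flank regions are therefore described by their listed values. Of these, 40 were higher and 28 lower than in untreated cells, so 58.8% were higher (exact 95% interval 46.2% to 70.6%), beside 55.6% of all 588 regions in that table. Promoter regions of the same table were higher in 79.8% and intergenic regions in 40.0%, and the flank value lay between these.

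The region with the smallest p at 3 h lay on chromosome 8 from 70703921 to 70704706, in an intron of Iqcn and 3305 bp from Jund, the gene of an AP-1 subunit. In the authors' deposited table it had a log2 fold change of 1.91 ± 0.28 against untreated cells, or 3.76-fold, with an edgeR adjusted p of 0.0644. Regions beside 2 other immediate early genes were listed in the same direction. One, 1501 bp from the AP-1 gene Jun (chromosome 4, 95046695 to 95047535), had a log2 fold change of 1.07 ± 0.25 in the authors' deposited table (adjusted p = 0.713, edgeR). The other, 357 bp from Ccn1, which encodes a secreted matrix protein induced by serum and by YAP, was 2152 bp wide at 6.10 log2 CPM and had a log2 fold change of 0.81 ± 0.20 in the authors' deposited table (adjusted p = 0.727, edgeR). All 3 were annotated upstream of transcripts without a symbol, so they entered by the flank of a neighbouring transcript and not by the flank of Jund, Jun or Ccn1.

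Further regions higher at 3 h with small p were upstream of named genes and had adjusted p values far above 0.05. The authors' deposited table gave log2 fold changes of 1.04 ± 0.22 upstream of 1110038F14Rik (adjusted p = 0.462, edgeR), 0.79 ± 0.17 upstream of Rbm38, an RNA-binding protein gene (adjusted p = 0.587, edgeR), and 0.97 ± 0.23 upstream of Ebf4, an early B-cell factor family gene (adjusted p = 0.713, edgeR). Smaller values in the authors' deposited table were 0.67 ± 0.17 upstream of Mtmr12, which encodes a myotubularin-related protein (adjusted p = 0.759, edgeR), and 0.74 ± 0.20 within Bsg, whose product escorts monocarboxylate transporters to the membrane (adjusted p = 0.939, edgeR). The largest of the sparse regions were upstream of Fam71a and in an intron of Ano1, a calcium-activated chloride channel gene, at 0.51 and -0.25 log2 CPM. The authors' deposited table gave them log2 fold changes of 1.57 ± 0.47 (adjusted p = 0.9999, edgeR) and 1.57 ± 0.45 (adjusted p = 0.990, edgeR). The Fam71a region also had the coding gene Atf3 within 5 kb.

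On the lower side at 3 h, the smallest p belonged to a region on chromosome 5 from 104251646 to 104252388, 37544 bp from the nearest coding gene, Dmp1, with a log2 fold change of -0.88 ± 0.18 in the authors' deposited table (adjusted p = 0.399, edgeR). A sparse region on chromosome 6 from 7536205 to 7536610, 18451 bp from Tac1, had -1.34 ± 0.29 in the authors' deposited table (adjusted p = 0.564, edgeR). Among named genes, the authors' deposited table listed log2 fold changes of -0.82 ± 0.18 at Iffo1, an intermediate filament family gene (adjusted p = 0.587, edgeR), and -0.74 ± 0.18 at Pde10a, a cyclic nucleotide phosphodiesterase gene (adjusted p = 0.746, edgeR). The authors' deposited table also held -0.91 ± 0.24 upstream of Cacna1b, the N-type calcium channel gene, and -0.62 ± 0.17 upstream of the zinc finger gene Zfp810, both at an edgeR adjusted p of 0.939. Below 1 log2 CPM, the authors' deposited table held values of -1.36 ± 0.40 upstream of the pseudogene Adh6-ps1 and -0.96 ± 0.30 upstream of Bco1, which encodes the enzyme that cleaves beta-carotene (adjusted p = 0.9999 for both, edgeR).

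Regions without a symbol on chromosomes 17 and 6 completed the 8 lower regions with the smallest p. On chromosome 17, from 45615896 to 45617046 and 13145 bp from Capn11, the log2 fold change was -0.63 ± 0.16 in the authors' deposited table (adjusted p = 0.907, edgeR). On chromosome 6, from 118259663 to 118260585 and 61919 bp from Ret, it was -0.71 ± 0.19 in the authors' deposited table (adjusted p = 0.937, edgeR). In all, 4 of these 8 regions had no symbol, against 3 of the 8 higher ones with the smallest p. Over the whole list of flank regions at 3 h the gap was wider. There, 10 of the 28 lower regions had no symbol, against 5 of the 40 higher ones. In 24 h against 3 h the order was the other way, with 24 of the 58 higher and 21 of the 66 lower flank regions. At 24 h against untreated it was 2 of 7 in each direction. Of all 196 flank regions, 59 had no symbol.

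Within the list at 3 h, the flank regions with higher values lay near CpG islands more often than those with lower values. None of these regions passed the adjusted p limit. The split therefore describes the list, and the intervals below treat regions as independent, so they do not test it. Of the 40 flank regions higher at 3 h, 26 touched an island, shore or shelf (65.0%, exact 95% interval 48.3% to 79.4%), against 5 of the 28 lower ones (17.9%, interval 6.06% to 36.9%). The other listed regions showed the same order at a lower level, with 30.3% of the higher and 4.72% of the lower. The distance to the nearest start that a region was annotated upstream of was also listed. It was below 3 kb for the midpoints of 27 of 40 higher and 15 of 28 lower flanks. Median distances were 2444 bp and 2888 bp. At 24 h against untreated the split was 4 of 7 rising and 3 of 7 falling regions near an island, which is too few to order. All these intervals cover counting error only, and neighbouring regions are not independent samples of a treatment.

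**Figure D3:**
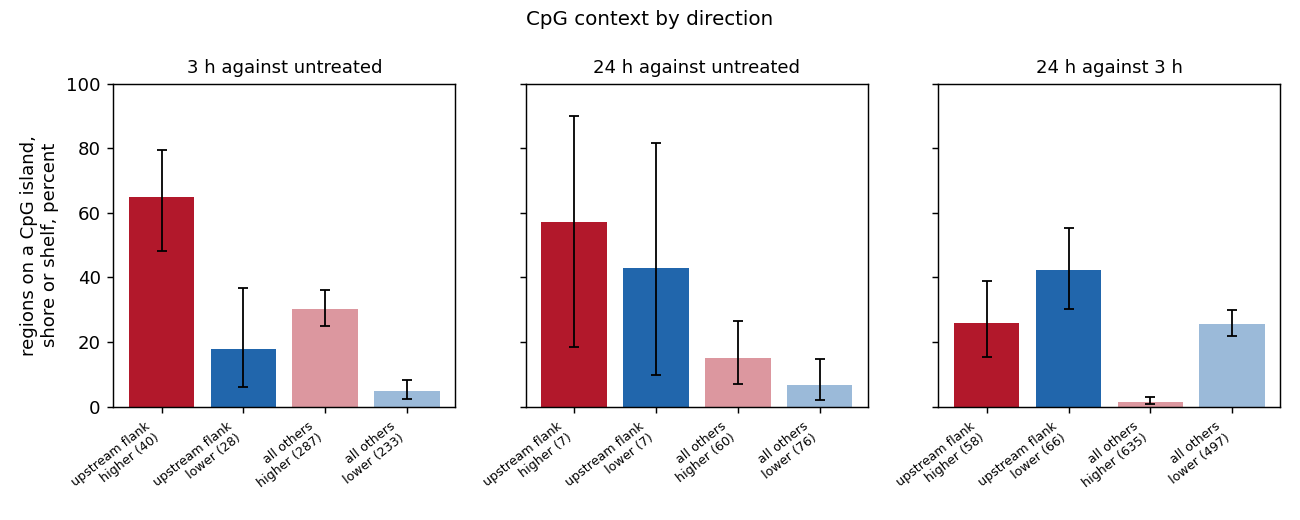
Percent of listed regions that touch a CpG island, shore or shelf (vertical axis), by comparison and direction, for upstream flank regions and all other listed regions, with exact 95% intervals. At 3 h against untreated the flank values are 65.0% of higher and 17.9% of lower regions, and at 24 h against 3 h they are 25.9% of higher and 42.4% of lower regions.

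**Figure D4:**
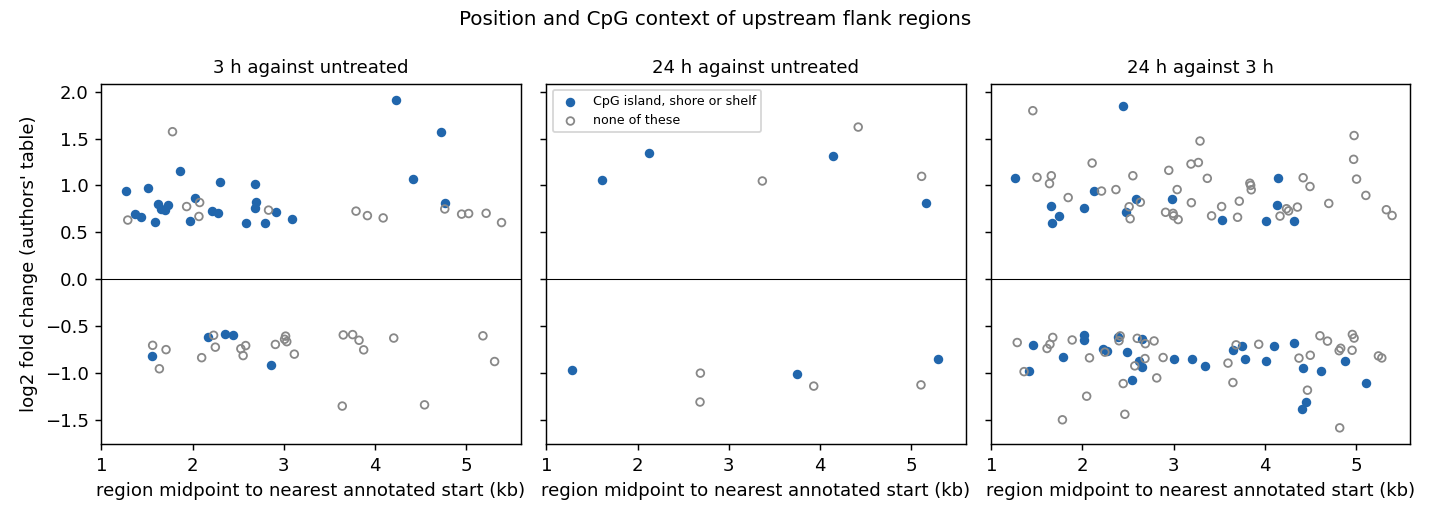
Log2 fold change (vertical axis) against the distance of the region's midpoint from a start in kb (horizontal axis) for each table, 1 point per upstream flank region. The start is the nearest one that the region is annotated upstream of. Points are blue where the region touches a CpG island, shore or shelf. Midpoints run from 1262 to 5398 bp, and the blue points at 3 h against untreated are mostly above 0.

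In the comparison of 24 h with 3 h, which asks how accessibility differs between the later and the earlier exposure, none of the 124 flank regions passed an adjusted p of 0.05 in the authors' edgeR test. All had a raw p under 0.005, with adjusted p values of 0.198 to 0.520, and 0% of all tested regions passed. Values were higher at 24 h than at 3 h in 58 regions and lower in 66, so 46.8% were higher (exact 95% interval 37.8% to 55.9%), beside 55.2% of all 1256 listed regions. Promoter regions were higher in 21.0% and intergenic regions in 68.1%, with introns at 61.5%. The flank share turned with the annotation rule and the limits. Of the 61 regions that also touch no intron, 54.1% were higher. Of the 35 regions with a raw p of at most 0.001, 62.9% were higher, and of the 32 with at least a 2-fold change, 62.5% were.

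**Figure D5:**
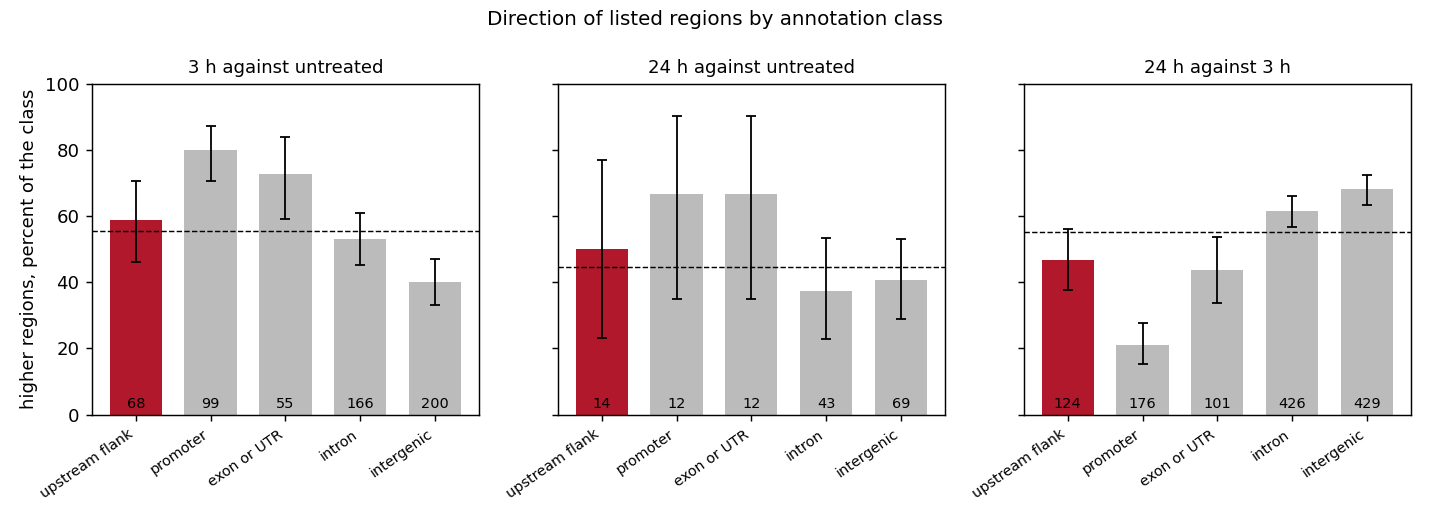
Percent of listed regions with a higher value in the later or treated group (vertical axis), by annotation class and comparison, with exact 95% intervals and a dashed line at the share of all listed regions. Upstream flanks stand at 58.8% for 3 h against untreated, 50.0% for 24 h against untreated and 46.8% for 24 h against 3 h, each between promoters and intergenic regions.

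The share near CpG islands was smaller among the regions higher at 24 h than among the lower ones. The intervals overlapped, but they cover counting error only and do not test this order. Of the regions higher at 24 h, 15 of 58 touched an island, shore or shelf (25.9%, exact 95% interval 15.3% to 39.0%), against 28 of the 66 lower ones (42.4%, interval 30.3% to 55.2%). In the other listed regions the shares were 1.57% of the higher and 25.8% of the lower. At a raw p of at most 0.001 the order among flanks was the other way round, with 40.9% of the 22 higher and 23.1% of the 13 lower regions. Both this comparison and that of 3 h with untreated cells use the 3 h libraries, with opposite sign.

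Of the 8 flank regions higher at 24 h than at 3 h with the smallest p, 7 lay in an intron, the Nipa1 and Zcchc2 regions among them. Over the whole list the order was the other way, with 25 of the 58 higher regions in an intron (43.1%) and 38 of the 66 lower ones (57.6%). The authors' deposited table put the log2 fold change at 0.87 ± 0.18 in Mcph1, which encodes the DNA damage and chromosome condensation protein microcephalin (adjusted p = 0.257, edgeR). It was 0.96 ± 0.20 at Emilin2, an extracellular matrix glycoprotein gene (adjusted p = 0.278, edgeR), and 1.02 ± 0.22 at Vmp1, whose membrane protein acts in autophagosome formation (adjusted p = 0.293, edgeR), in the authors' deposited table. Upstream of Pde1c, a calmodulin-dependent phosphodiesterase gene, and in an intron of the glycosyltransferase gene B3gnt2, the authors' deposited table gave 0.86 ± 0.19 and 0.71 ± 0.16 (adjusted p = 0.301 for both, edgeR). Upstream of Tmem185b it gave 1.07 ± 0.24 in the authors' deposited table (adjusted p = 0.303, edgeR).

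The steepest positive values were in sparse regions. The authors' deposited table put the log2 fold change at 1.85 ± 0.59 upstream of Atp12a, a proton and potassium pump gene, at -0.38 log2 CPM (adjusted p = 0.518, edgeR). At -0.52 log2 CPM, a region on chromosome 11 from 109766918 to 109767144, upstream of a transcript without a symbol, had 1.80 ± 0.53 in the authors' deposited table (adjusted p = 0.466, edgeR). Upstream of the zinc finger gene Zfp85, at 0.36 log2 CPM, the authors' deposited table gave 1.53 ± 0.43 (adjusted p = 0.434, edgeR). Their standard errors were well above the median of 0.221 in this table.

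The regions lower at 24 h than at 3 h with the smallest p included some within Csk and Tln2. The authors' deposited table listed a log2 fold change of -0.90 ± 0.19 within Csk, the kinase that restrains Src family kinases (adjusted p = 0.257, edgeR), and -0.84 ± 0.19 within Tln2, a talin that links integrins to actin (adjusted p = 0.304, edgeR). A region upstream of Gm10804, in an intron of the tetraspanin gene Cd82, had -0.76 ± 0.17 in the authors' deposited table (adjusted p = 0.289, edgeR). In introns of Nuak1, a kinase related to AMPK, and of the demethylase family gene Jmjd1c, upstream of Reep3, the authors' deposited table gave -0.86 ± 0.19 and -0.83 ± 0.18 (adjusted p = 0.301 for both, edgeR). Upstream of Card10, a scaffold gene of NF-kB signalling, it gave -0.88 ± 0.20 in the authors' deposited table (adjusted p = 0.303, edgeR). A region without a symbol on chromosome 9, from 40671366 to 40671778 and 10345 bp from Clmp, had -1.44 ± 0.31 in the authors' deposited table (adjusted p = 0.278, edgeR).

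Of the flank regions, 2 were listed both at 3 h against untreated and at 24 h against 3 h. The 3 h libraries enter both comparisons with opposite sign. How many of all listed regions are in both tables is not given here. The region near Jun had log2 fold changes of 1.07 ± 0.25 and -0.95 ± 0.25 in the authors' deposited tables (adjusted p = 0.713 and 0.401, edgeR), and their sum, which stands for 24 h against untreated, was 0.12. The sparse region upstream of Fam71a had 1.57 ± 0.47 and -1.50 ± 0.47 in the authors' deposited tables (adjusted p = 0.9999 and 0.508, edgeR), with a sum of 0.07. Neither sum carries a test, and neither region is in the table of 24 h against untreated cells.

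A set of 17 gene lists for muscle, stress, metabolism and cell type markers held 462 distinct genes. Of these, 8 had an upstream flank region and 56 had any listed region. For scale, 139 genes in all had a flank region, and the RefSeq windows described above cover 27025 genes. The small counts per list are therefore not read as absence or enrichment. The proteolysis and autophagy list had 2 of 30 genes with a flank region. One of these was Psmd1, a subunit gene of the proteasome's regulatory particle, with a log2 fold change of 1.10 ± 0.30 for 24 h against 3 h in the authors' deposited table (adjusted p = 0.417, edgeR). The TGF-beta and YAP list had 2 of 31. At Skil, a repressor of SMAD signalling, the authors' deposited table gave -0.88 ± 0.24 for 24 h against 3 h (adjusted p = 0.417, edgeR), and at Ajuba, a LIM protein gene of Hippo signalling, -0.59 ± 0.17 for 3 h against untreated (adjusted p = 0.996, edgeR).

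In the ion transport list, 2 of 28 genes had one, among them Atp12a, given above. The NF-kB list had 1 of 22, Rela, which encodes the p65 subunit, at -0.61 ± 0.17 for 3 h against untreated in the authors' deposited table (adjusted p = 0.959, edgeR). The hypoxia list had 1 of 26, Car9, a carbonic anhydrase gene, whose region is also upstream of Arhgef39 and had 0.76 ± 0.24 at 3 h in the authors' deposited table (adjusted p = 0.9999, edgeR). The other 12 lists had 0, among them the AP-1 and immediate early genes (0 of 34, with 4 genes having a listed region of another kind), sarcomere genes (0 of 44), myogenic regulators (0 of 37) and the lists of fibroblast, reserve cell, and adipocyte and smooth muscle markers. Of the 6 genes of these lists named here, Psmd1, Skil, Ajuba, Atp12a, Rela and Car9, none passed an adjusted p of 0.05 in the authors' edgeR test, and each had a raw p under 0.005.

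At 19 of the 139 genes, another listed region belonged to the same gene. In 24 h against 3 h, 12 of 13 pairs of a flank region and another region, at 6 genes, had the same sign. For 3 h against untreated it was 6 of 9 pairs, at 8 genes. Some pairs of regions entered these counts more than once, so the pairs are not independent. The genes that follow were chosen after their values were seen. At Tln2, both flank regions and 2 intron regions were listed for 24 h against 3 h, with log2 fold changes of -0.84, -0.82, -0.70 and -0.77 in the authors' deposited table (adjusted p of 0.304 to 0.469, edgeR). At Col18a1, the gene of a basement membrane collagen, a sparse flank region at -0.10 log2 CPM had -1.59 ± 0.50 for 24 h against 3 h in the authors' deposited table (adjusted p = 0.511, edgeR). Another flank region, in a Col18a1 intron but upstream of a transcript without a symbol, had -0.74 in the authors' deposited table (adjusted p = 0.514, edgeR). An intron region of Col18a1 had -1.07 in that comparison in the authors' deposited table (adjusted p = 0.195, edgeR), and at 24 h against untreated cells it fell by 0.89 in log2 units (adjusted p = 0.0493, edgeR). At Hlcs, another flank region 1810 bp from the first had -0.66 ± 0.21 for 24 h against 3 h in the authors' deposited table (adjusted p = 0.504, edgeR). Upstream of Cp, the region that holds the Gm42190 window had 0.70 and a promoter region 2517 bp away had 0.60 for 24 h against 3 h in the authors' deposited table (adjusted p = 0.332 and 0.430, edgeR).

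Signs differed at other genes. For 3 h against untreated, the authors' deposited table gave 0.76 at the flank of Car9 and Arhgef39 against -0.78 at an exon region there, and -0.65 at the flank of Plekha7 against 0.64 at its promoter (adjusted p = 0.9999 for all 4, edgeR). At Naip1, for 24 h against 3 h, the flank region had 1.23 and an intron region -0.61 in the authors' deposited table (adjusted p = 0.346 and 0.466, edgeR).

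One flank region lay upstream of a microRNA gene, and was chosen for that reason. Upstream of Mir129-2, on chromosome 2 from 94245237 to 94245889, the authors' deposited table gave a log2 fold change of -0.75 ± 0.23 for 24 h against 3 h (adjusted p = 0.508, edgeR). RefSeq (GRCm38.p6) lists 2 mature products of this hairpin, printed 5′ to 3′ with the seed (bases 2 to 8) in capitals, and the seeds differ.
mmu-miR-129-2-3p: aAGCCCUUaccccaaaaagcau
mmu-miR-129-5p: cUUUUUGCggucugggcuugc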

How the data were processed

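Values came from 3 tables of regions that the authors deposited, 1 per pairwise comparison of 24 h, 3 h and untreated cells. Each row gives a log2 fold change, mean abundance as log2 CPM, an F statistic (a score), a p-value and a false discovery rate, all made by the authors with edgeR and deposited per region, with counts per library not used here. Per the submitters' processing notes, the tools included Bowtie2 2.3.4.1, MACS2, Trim Galore 0.4.5 with cutadapt 1.15, bedtools, Picard 2.20.2, FastQC, MultiQC and SAMtools, and the build was mm10. How these were set is not given in the sources used here.

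Rows were annotations of a region to transcripts, and were joined by region name. Approximate standard errors were |log2 fold change| divided by the square root of F. The number tested, 146047, was the ratio of adjusted to raw p in the top row of the 3 h and 24 h tables, and the same set was assumed for 24 h against 3 h. All statistical tests are the authors' edgeR tests, since a refit needs values per library. Shares have exact (Clopper-Pearson) 95% intervals, which cover counting error only. Gene positions came from RefSeq (GRCm38.p6), where 1051 of 1052 gene identifiers matched. Whether the replicates came from separate cultures is known only as the labels' word.

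Named regions were those past an adjusted p of 0.05, the 8 with the smallest p and the 3 with the largest change per comparison and direction, those in 2 or more tables, and those upstream of listed genes. Some regions that meet this rule are not reported here. The members and gene lists were chosen with earlier results of these data known. Only the way the number tested was found was checked on simulated p-values, and a copy of the annotation rule on made cases. The scripts used pandas 2.3.3, numpy 2.4.6, matplotlib 3.10.9 and scipy 1.17.1 under Python 3.11.15. Alternatives changed the annotation rule, the p, fold and abundance limits.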

Additional observations from a re-analysis of the deposited data

How the results depend on the processing

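Over 16 results and 63 alternative values, 48 stayed within the tolerance (a share within the exact 95% interval of the reported share, a count within 1.5 times, a median within the median standard error) and 15 moved. Staying within it does not fix the side of 50%: without introns, 54.1% of regions were higher in 24 h against 3 h, against 46.8% as reported. A stricter annotation rule gave 103 regions and a looser one 376, with 9 and 23 regions past an adjusted p of 0.05 at 24 h. With the looser rule, 35.5% of flank regions were higher in 24 h against 3 h, and 56.4% of the lower ones touched an island, shore or shelf. An adjusted p limit of 0.1 gave 1 region at 3 h. At a raw p of at most 0.001, 100% of the 7 regions higher at 3 h touched an island, shore or shelf, and for 24 h against 3 h these shares were 40.9% of the higher and 23.1% of the lower regions, with 62.9% of regions higher. With at least a 2-fold change, 77.8% of 9 regions were higher at 3 h, 85.7% of those touched an island, shore or shelf, 62.5% of regions were higher in 24 h against 3 h, and 15.0% of those touched one. The cause of these moves was not tested. The alternatives for the share near an island, and the use of the 24 h table's p limit in all tables, were added after seeing the data. No paired analysis was possible because the tables give no values per library. Leaving out single replicates was not run for the same reason, and the depth of each library is unknown.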
